A study of Homo sapiens with 6 samples.

Results

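The genes described here encode the classical axon guidance cues and their receptors: ephrins and Eph receptors, semaphorins with their plexin and neuropilin receptors, Slits and Robos, and netrins with DCC, neogenin and the UNC5 receptors. They were taken by gene symbol, with earlier results of these data known, and 72 of the 62703 genes in the count table carry such a symbol. RNA was measured in the established gastric cancer line HGC-27, of human origin, in 3 libraries of cells with a control shRNA (shControl) and 3 libraries of cells stably transfected with an shRNA against GXYLT2 (shGXYLT2), all grown in RPMI 1640 with 10% fetal bovine serum. GXYLT2 encodes a glucoside xylosyltransferase that adds xylose to O-glucose on EGF repeats, as on Notch, and the study asked how its knockdown bears on genes tied to malignant behaviour. Whether replicates were separate cultures, and how many transfected clones each line holds, is not stated in the labels. The p-values therefore reflect the spread among these 6 libraries only, and that spread may be technical.

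Axon guidance cues steer growing neurites by attraction or repulsion, and the same families act outside the nervous system in cell sorting, adhesion, migration and vessel growth. Ephrins are bound to the membrane and signal at cell contacts, in both directions, with the Eph receptor tyrosine kinases. Class 3 semaphorins are secreted and bind neuropilins, which pair with plexins as the signalling subunit, while most membrane-bound semaphorins bind plexins directly. Slits are secreted ligands of Robo receptors, and netrins are secreted ligands of DCC, neogenin and the UNC5 family.

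Library totals lay between 17291138 and 24898425 estimated counts. GXYLT2 stood at 20.7, 22.8 and 20.2 counts per 1000000 (CPM, scaled by TMM) in shControl replicates 1 to 3 and at 5.27, 6.27 and 5.34 CPM in shGXYLT2, so its mean was 73.5% lower (log2 fold change -1.91, SE 0.109, edgeR adjusted p = 6.3e-10). Markers of gastric epithelium were nearly absent, with TFF1, TFF2, MUC5AC, GKN1, PGC and KRT20 at 0 counts, EPCAM at 0.151 CPM in shControl, and the sum of 14 epithelial and gastric genes between 6.55 and 7.44 CPM in shControl and between 7.54 and 10.1 CPM in shGXYLT2, where MUC6 was higher. Genes typical of fibroblasts, 8 in number, summed to between 2043 and 2189 CPM in shControl and to between 2239 and 2355 CPM in shGXYLT2. Most of this was COL3A1, at 1581 and 1673 CPM, which did not pass the threshold. DCN and LUM were higher and COL6A3 and ACTA2 lower. Low levels were found for PDGFRB (1.28 and 0.673 CPM), COL6A3 (1.27 and 0.517 CPM) and FAP (8.89 and 8.51 CPM). Markers were also read for neurons and endothelium, cells that carry many of these receptors. Of 12 neuron genes, 6 were not tested. They were ELAVL4 at 0 counts, and STMN2, GAP43, ELAVL3, NEFM and DCX at means of at most 0.180 CPM. The 12 summed to 73.4 to 74.0 CPM in shControl and 70.6 to 78.7 CPM in shGXYLT2, most of it TUBB3. TUBB3 stood at 55.5 and 49.0 CPM, lower without overlap but not past the threshold, while SYT1 and SYP were higher. Endothelial genes summed to 3.65 to 4.08 CPM and 2.65 to 3.52 CPM, with PECAM1, CDH5 and KDR at 0 counts. Whether these marker levels bear on the guidance genes was not tested, and in bulk RNA fewer cells of a kind and less RNA per cell cannot be told apart.

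The cells held RNA of nearly every guidance family. Of the 72 genes, 62 passed the filter on low counts and were tested. The 10 that did not were EPHA1, EPHA10, SEMA4A, SEMA5B, SLIT1, ROBO4, NTN5, NTNG2, UNC5A and DCC. ROBO4, known as an endothelial receptor, had 0 counts in all 6 libraries, and DCC, the classical attractive netrin receptor, had 3 counts over all of them. The largest total among the 10 was 50 counts, for NTNG2. Per kilobase of the deposited gene length, which the table does not define, the highest level in shControl was that of PLXNB2, a receptor of class 4 semaphorins, at 20.2 ± 0.441 CPM per kilobase (SD, n = 3). The Slit ligand SLIT2 followed at 20.0 ± 0.396, which differed from PLXNB2 by less than their SDs. The Slit receptor ROBO1 stood at 16.6 ± 0.396 and the netrin receptor UNC5B at 16.2 ± 0.637 CPM per kilobase, which differed by no more than the larger of their SDs. The ephrin-B receptor EPHB4 at 14.3 ± 0.452 and SEMA3D at 13.8 ± 0.666 CPM per kilobase came next. In shGXYLT2, PLXNB2 stood at 22.5 ± 2.33 and SLIT2 at 20.4 ± 0.856 CPM per kilobase. SEMA3A was at 15.6 ± 1.01 CPM per kilobase in shControl and 20.7 ± 2.42 in shGXYLT2, but its deposited length of 2550 bases is shorter than its annotated 3′ untranslated region of 5594 bases in GENCODE 29, so its place among the genes is not known. Other genes with long untranslated regions may be placed too high in the same way.

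**Figure D1:**
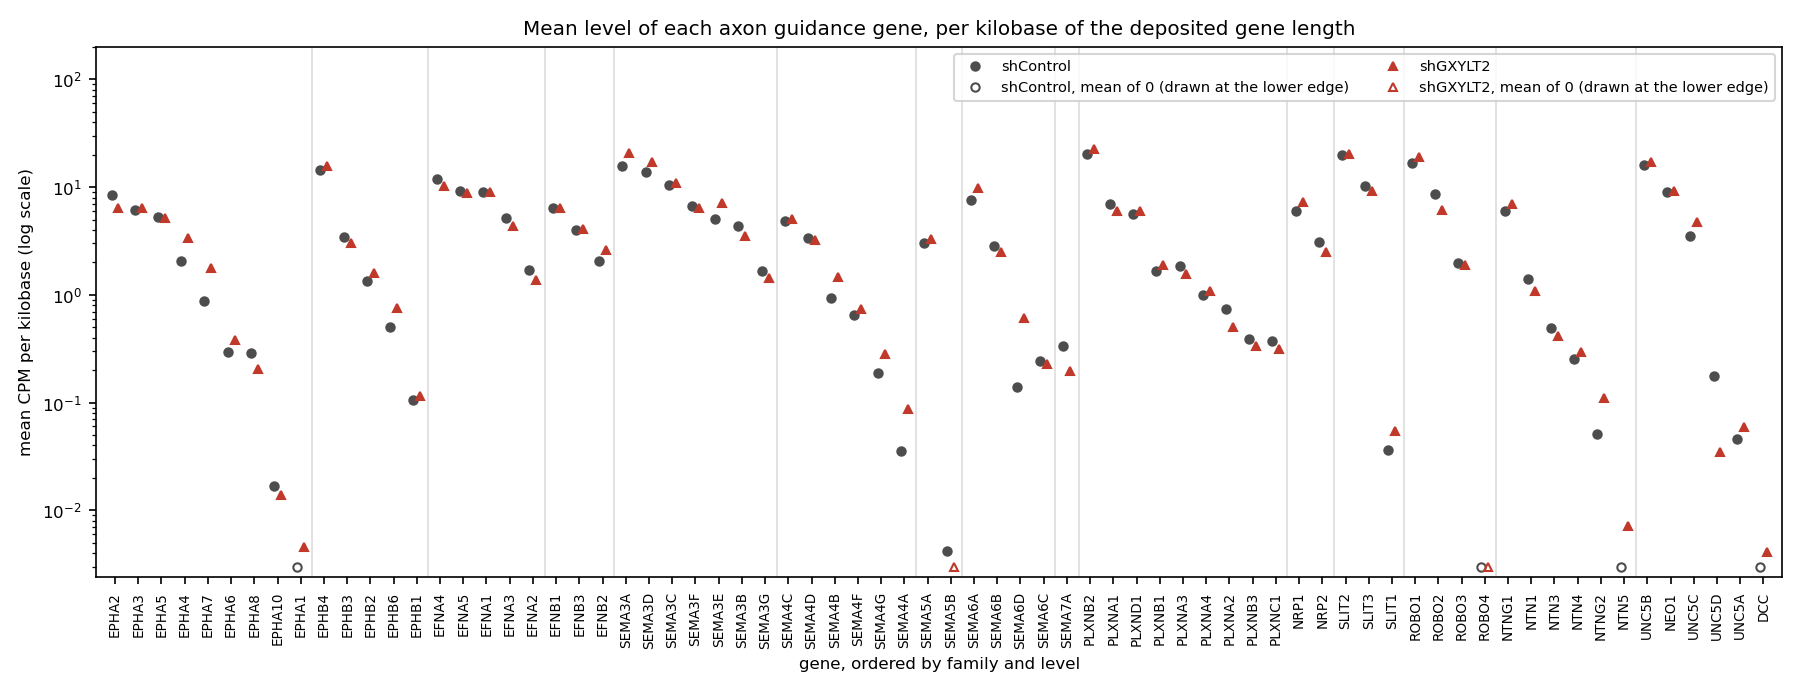
Mean level of each of the 72 axon guidance genes in CPM per kilobase of the deposited gene length, on a log scale, grouped by family, with grey circles for the 3 shControl libraries and red triangles for the 3 shGXYLT2 libraries. Open symbols at the lower edge are means of 0. PLXNB2 and SLIT2 were highest in shControl, and ROBO4 was at 0 in both groups.

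Guidance genes were called changed in both directions, though the share called lower was near that of all tested genes. By edgeR's quasi-likelihood test, with Benjamini-Hochberg adjustment over the 15693 genes tested and a threshold of 0.05, 11 of the 62 tested members (17.7%) were higher in shGXYLT2, where 5.31% of all tested genes were. Lower in shGXYLT2 were 5 members (8.06%), where 6.84% of all tested genes were. Over both directions the background was 12.2%. The remaining 46 members did not pass. Of 32 tested ligands, counting ephrins, semaphorins, Slits, netrins and netrin-Gs, 7 were higher and 0 were lower, though 15 of the 32 had fold changes below 0 and 8 lay wholly below shControl, beside 10 wholly above. Of 30 tested receptors, 4 were higher and 5 lower. The difference between ligands and receptors was not tested. Semaphorins can also act as receptors and ephrins signal in reverse, so this division follows their usual names. The median log2 fold change was 0.034 over the tested members and -0.0057 over all tested genes, and the median size of the called changes was 0.46 on the log2 scale for members and 0.39 for all genes. A change of 2-fold or more was found in 3 of the 16 called members, SEMA6D, EPHA7 and UNC5D. UNC5D passed the count filter through the shControl libraries alone, so it could be called only as lower, and without it 4 members were lower and 2 of 15 calls reached 2-fold. In 33 members (53.2%) the 3 libraries of one group all lay above the 3 of the other, with 18 higher and 15 lower in shGXYLT2. Over all tested genes that share was 30.4%, with 14.6% higher and 15.8% lower. All 16 called members were among the 33.

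**Figure D2:**
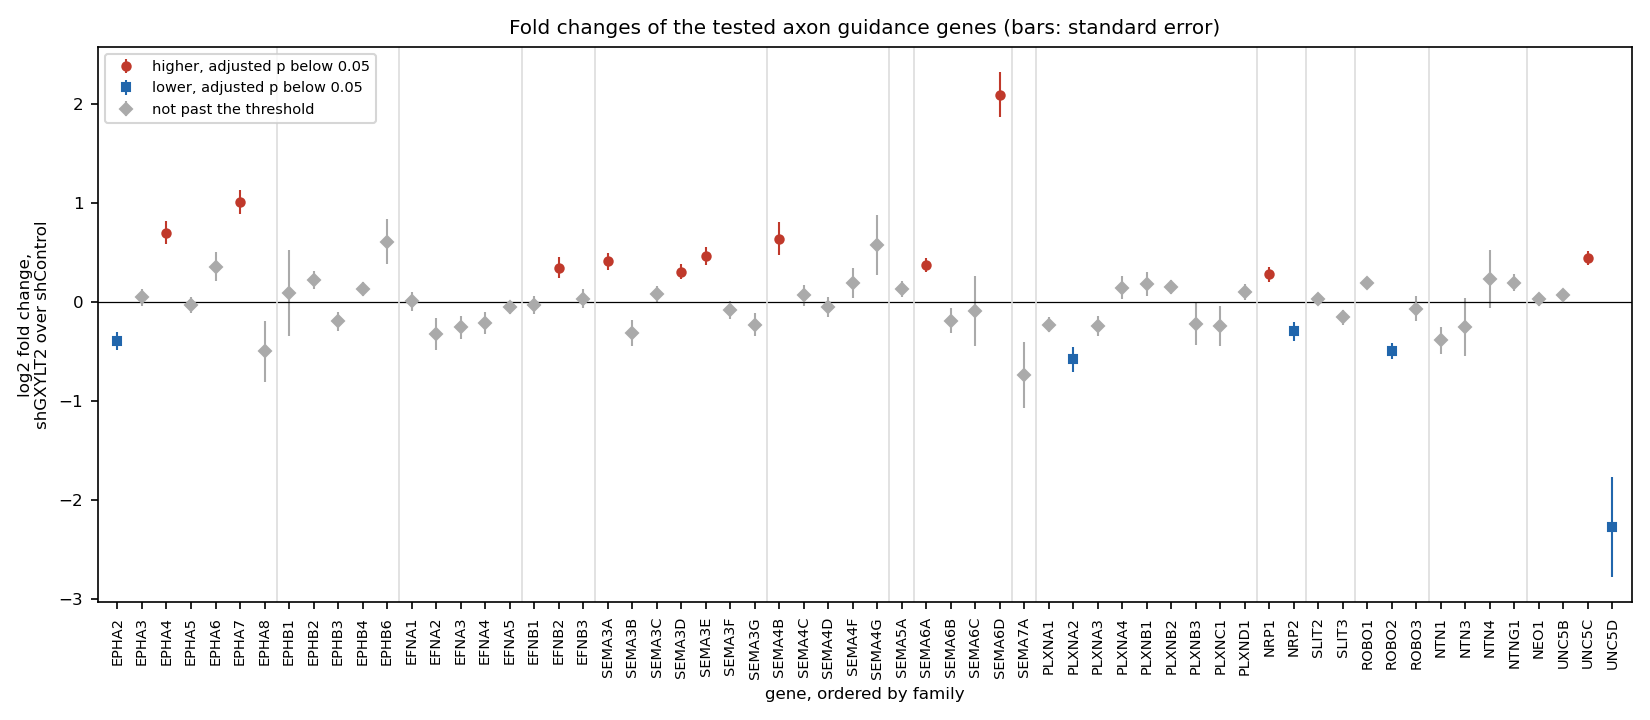
Log2 fold change, shGXYLT2 over shControl, of the 62 tested axon guidance genes ordered by family. Bars are standard errors from the edgeR fit. Red circles are the 11 genes called higher, blue squares the 5 called lower and grey diamonds the 46 past neither threshold. SEMA6D at 2.10 and UNC5D at -2.27 lie farthest from 0.

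Among semaphorins, 6 of 18 tested members were higher in shGXYLT2 and 0 were lower, where 5.31% and 6.84% of all tested genes were. Fold changes were below 0 in 7 of the 18. Wholly below shControl lay 3 of them and wholly above 7, where 15.8% and 14.6% of all tested genes did. The 6 called were SEMA3A, SEMA3D and SEMA3E of the secreted class 3, SEMA4B of class 4, and SEMA6A and SEMA6D of the transmembrane class 6. SEMA6D (ENSG00000137872, chr15:47184101-47774223, plus strand in GRCh38), a ligand of plexin-A receptors, changed most: it had 0.862, 0.703 and 0.924 CPM in shControl and 3.76, 3.79 and 3.23 CPM in shGXYLT2. These rest on 12 to 21 counts in each shControl library and 72 to 94 in each shGXYLT2 library, and the groups did not overlap. The mean went from 0.830 ± 0.114 to 3.59 ± 0.311 CPM (SD, n = 3 each), a 4.28-fold rise (log2 fold change 2.10, SE 0.226, edgeR adjusted p = 3.4e-06). SEMA6A (chr5:116443616-116574934, minus strand), also a plexin-A ligand, had 32.0, 31.9 and 32.9 CPM in shControl and 43.1, 42.4 and 40.4 CPM in shGXYLT2. The 2 sets were tight and apart, and the rise was 1.30-fold (log2 fold change 0.38, SE 0.0710, edgeR adjusted p = 0.0014). The class 6 members SEMA6B, at 11.4 against 10.0 CPM, and SEMA6C, at 0.922 against 0.871 CPM, did not pass.

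The 3 class 3 genes that rose are secreted ligands. SEMA3A (ENSG00000075213, chr7:83955777-84492724, minus strand), the collapsin that repels axons through NRP1 and plexin-A, had 41.8, 36.8 and 40.4 CPM in shControl and 55.6, 57.1 and 45.7 CPM in shGXYLT2. Its mean rose 1.33-fold, from 39.7 ± 2.58 to 52.8 ± 6.18 CPM (log2 fold change 0.41, SE 0.0842, edgeR adjusted p = 0.0029). SEMA3E (chr7:83363238-83649113, minus strand), which binds PLXND1 without a neuropilin, had 37.2, 36.2 and 38.0 CPM in shControl and 54.8, 56.2 and 43.0 CPM in shGXYLT2. The groups did not overlap for either gene, and shGXYLT2 replicate 3 lay nearest to shControl in both. SEMA3E rose 1.38-fold (log2 fold change 0.47, SE 0.0882, edgeR adjusted p = 0.0015). SEMA3D (chr7:84995553-85186855, minus strand), a secreted neuropilin ligand, had 93.3, 88.9 and 98.0 CPM in shControl and 125, 121 and 101 CPM in shGXYLT2, a 1.24-fold rise (log2 fold change 0.31, SE 0.0742, edgeR adjusted p = 0.0095). Its lowest shGXYLT2 library, replicate 3, stood just above the highest shControl library, and the call was lost when shControl replicate 2 or shGXYLT2 replicate 1 or 2 was left out (adjusted p up to 0.077). The other class 3 genes did not pass: SEMA3C at 25.0 and 26.5 CPM, SEMA3F at 24.2 and 23.0 CPM, SEMA3B at 10.0 and 8.03 CPM, and SEMA3G at 8.36 and 7.16 CPM in shControl and shGXYLT2. In SEMA3B and SEMA3G all 3 shGXYLT2 libraries lay below all 3 of shControl (log2 fold changes -0.31 and -0.23).

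SEMA4B (chr15:90160604-90229679), a membrane-bound semaphorin, had 3.33, 4.22 and 3.12 CPM in shControl and 5.47, 5.01 and 6.11 CPM in shGXYLT2. It rose 1.56-fold with groups that did not overlap (log2 fold change 0.64, SE 0.163, edgeR adjusted p = 0.013). Without shControl replicate 1 or 3 the SEMA4B call was lost (adjusted p up to 0.090). The other class 4 genes tested did not pass, led per kilobase by SEMA4C at 17.6 and 18.5 CPM and SEMA4D, the plexin-B1 ligand, at 15.2 and 14.6 CPM. SEMA5A, of the class with thrombospondin repeats, stood at 35.3 and 38.6 CPM (log2 fold change 0.13, edgeR adjusted p = 0.31). SEMA7A, which is held by a GPI anchor and binds PLXNC1 and integrins, had a mean of 1.13 ± 0.313 CPM in shControl and 0.667 ± 0.0933 in shGXYLT2, without overlap but short of the threshold (log2 fold change -0.74, SE 0.332, edgeR adjusted p = 0.17).

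Of the 9 tested plexins, the signalling receptors of semaphorins, 0 were higher and 1, PLXNA2, was lower, counts too small to set apart from the 5.31% and 6.84% of all tested genes. PLXNA2 (chr1:208022242-208244320, minus strand), a signalling receptor for SEMA6A and, with neuropilins, for class 3 semaphorins, had 8.97, 7.79 and 8.97 CPM in shControl and 5.99, 5.62 and 5.66 CPM in shGXYLT2. All 3 shGXYLT2 libraries lay well below shControl, and the mean was 1.49-fold lower (log2 fold change -0.58, SE 0.125, edgeR adjusted p = 0.0047). PLXNA1, the most abundant plexin-A per kilobase, was at 65.5 ± 4.41 and 56.0 ± 5.87 CPM with groups that only just separated (log2 fold change -0.23, SE 0.0786, edgeR adjusted p = 0.068). Leaving out shGXYLT2 replicate 3 brought PLXNA1 past the threshold (adjusted p = 0.0093). PLXND1, the SEMA3E receptor, stood at 39.0 ± 0.967 and 41.8 ± 4.50 CPM, and PLXNB2 at 129 ± 2.81 and 143 ± 14.8 CPM; neither passed (edgeR adjusted p = 0.48 and 0.18). PLXNB2 passed without shGXYLT2 replicate 2, its lowest shGXYLT2 library (adjusted p = 2.8e-04).

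The neuropilins were called in opposite directions. NRP1 (chr10:33177492-33336262, minus strand), the co-receptor for SEMA3A and for VEGF-A, had 34.4, 32.9 and 34.5 CPM in shControl and 45.3, 38.8 and 39.7 CPM in shGXYLT2, and rose 1.22-fold (log2 fold change 0.28, SE 0.0771, edgeR adjusted p = 0.021). NRP2 (chr2:205681990-205798133, plus strand), the co-receptor preferred by SEMA3F and by VEGF-C, had 22.2, 19.5 and 19.8 CPM in shControl and 17.7, 15.2 and 17.2 CPM in shGXYLT2, and was 1.23-fold lower (log2 fold change -0.29, SE 0.0938, edgeR adjusted p = 0.046). The groups did not overlap for either gene. The NRP2 call was the least firm of the 16: it held under 2 of 12 alternative settings, with adjusted p from 0.021 to 0.25, and the NRP1 call held under 8 of 12, being lost without any single shControl library or without shGXYLT2 replicate 1. Within each library, where scaling between libraries cancels, the ratio of NRP1 to NRP2 counts was 1.55, 1.69 and 1.74 in shControl and 2.57, 2.56 and 2.31 in shGXYLT2. Every shGXYLT2 ratio was above every shControl ratio, with means of 1.66 ± 0.101 and 2.48 ± 0.145 (log2 difference 0.58, 2-sided exact permutation p = 0.1, the smallest that 3 libraries against 3 allow). This ratio, and that of the Robos, was chosen after the values were seen. NRP1 lay wholly above and NRP2 wholly below shControl, so separate ratios and this p were fixed beforehand. They are no further support for the 2 calls.

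Of 7 tested EphA receptors 2 were higher and 1 was lower, and of 5 EphB receptors 0 were called, where 12.2% of all tested genes were called in either direction. The difference between the classes was not tested. EPHA7 (ENSG00000135333, chr6:93240020-93419547, minus strand), a receptor for ephrin-A ligands, had 6.21, 5.80 and 5.59 CPM in shControl and 10.8, 12.9 and 11.7 CPM in shGXYLT2. Its mean rose without overlap, from 5.86 ± 0.316 to 11.8 ± 1.06 CPM (2.01-fold, log2 fold change 1.01, SE 0.121, edgeR adjusted p = 1.3e-05). An earlier look at these data had already named EPHA7. EPHA4 (ENSG00000116106, chr2:221418027-221574202, minus strand), which binds ephrins of both classes, had 6.04, 7.38 and 7.57 CPM in shControl and 11.7, 11.2 and 11.5 CPM in shGXYLT2. It rose 1.63-fold, with a gap between the groups wider than the spread in either (log2 fold change 0.70, SE 0.118, edgeR adjusted p = 5.4e-04). EPHA2 (chr1:16124337-16156087, minus strand), the ephrin-A1 receptor often abundant in carcinomas, moved the other way, with 35.5, 33.8 and 31.1 CPM in shControl and 26.5, 22.3 and 27.8 CPM in shGXYLT2. EPHA2 was 1.31-fold lower (log2 fold change -0.39, SE 0.0895, edgeR adjusted p = 0.0070), and without shControl replicate 1 its call was lost (adjusted p = 0.058). EPHA2 led the EphA genes per kilobase in shControl, at 8.48 CPM per kilobase, and stood at 6.47 in shGXYLT2.

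Of the EphA genes that did not pass, EPHA3 stood at 35.2 and 36.4 CPM, EPHA5 at 44.9 and 44.0 CPM and EPHA6 at 4.84 and 6.18 CPM in shControl and shGXYLT2. The EphB genes ran from EPHB4, the ephrin-B2 receptor, at 62.3 ± 1.97 and 68.4 ± 7.17 CPM, to EPHB1 at 0.413 ± 0.109 and 0.448 ± 0.110 CPM. EPHB2, at 14.5, 14.8 and 14.5 CPM against 17.3, 17.8 and 16.3 CPM, did not overlap between groups but did not pass (log2 fold change 0.23, SE 0.0909, edgeR adjusted p = 0.11). EPHB6, the family member with an inactive kinase, went from 1.72 ± 0.426 to 2.60 ± 0.345 CPM (log2 fold change 0.61, SE 0.229, edgeR adjusted p = 0.091).

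Among the 8 ephrins, EFNB2 alone was called, where 12.2% of all tested genes were. EFNB2 (chr13:106489731-106535662), the ligand of EPHB4 and also of EPHA4, had 9.77, 10.7 and 10.3 CPM in shControl and 12.9, 13.8 and 12.4 CPM in shGXYLT2, a 1.27-fold rise with groups apart (log2 fold change 0.35, SE 0.103, edgeR adjusted p = 0.032). Its call held under 5 of 12 alternative settings, with adjusted p from 0.0067 to 0.14, and was lost without any single shControl library and without shGXYLT2 replicate 1 or 2. EFNB1 at 21.4 and 20.9 CPM and EFNB3 at 13.0 and 13.3 CPM did not pass. The GPI-anchored ephrin-A ligands were led per kilobase by EFNA4, at 12.5 and 10.8 CPM, and EFNA5, at 49.1 and 47.4 CPM, and 0 of their 5 genes passed.

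**Figure D3:**
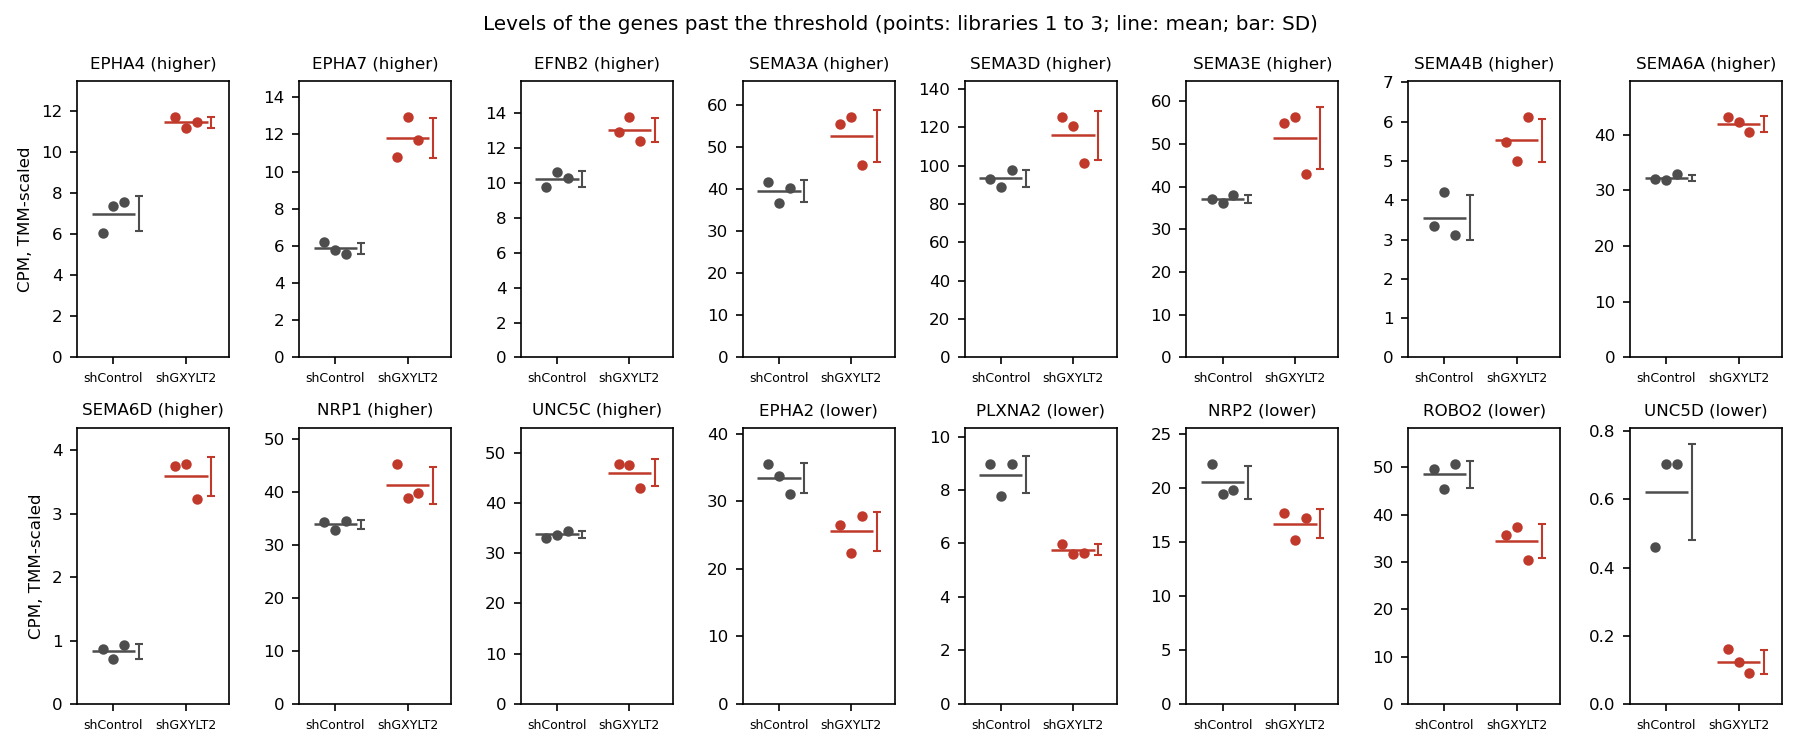
Level of each of the 16 called axon guidance genes in every library, in TMM-scaled CPM on axes that start at 0. Points are replicates 1 to 3 from left to right, lines are means and bars are SDs, with shControl in grey and shGXYLT2 in red. In none of the 16 panels do the groups overlap, and SEMA3D comes closest, with 98.0 CPM in shControl replicate 3 and 101 CPM in shGXYLT2 replicate 3.

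The Robo receptors differed from each other, and their Slit ligands did not pass. ROBO2 (chr3:75906695-77649964, plus strand) had 49.7, 45.3 and 50.7 CPM in shControl and 35.7, 37.3 and 30.3 CPM in shGXYLT2. It was 1.41-fold lower, from 48.5 ± 2.86 to 34.4 ± 3.66 CPM, with a wide gap between groups (log2 fold change -0.50, SE 0.0819, edgeR adjusted p = 4.4e-04). ROBO1, the more abundant Slit receptor, had 114, 113 and 118 CPM in shControl and 134, 139 and 121 CPM in shGXYLT2, all higher but just short of the threshold (log2 fold change 0.19, SE 0.0633, edgeR adjusted p = 0.052). ROBO1 passed under 6 of 12 alternative settings, with adjusted p from 8.6e-04 to 0.20. The ratio of ROBO1 to ROBO2 counts within a library was 2.29, 2.49 and 2.33 in shControl and 3.75, 3.73 and 4.01 in shGXYLT2. The means were 2.37 ± 0.106 and 3.83 ± 0.153 (log2 difference 0.69, 2-sided exact permutation p = 0.1, again the smallest possible). Since ROBO1 lay wholly above and ROBO2 wholly below shControl, separate ratios and this p were fixed beforehand. They add nothing to the values of the 2 genes. ROBO3, which modulates midline crossing, was at 8.96 and 8.58 CPM. SLIT2 stood at 102 ± 2.03 and 105 ± 4.39 CPM (log2 fold change 0.03, SE 0.0603, edgeR adjusted p = 0.79), and SLIT3 at 50.0 ± 1.70 and 44.9 ± 3.84 CPM (log2 fold change -0.15, SE 0.0742, edgeR adjusted p = 0.21).

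**Figure D4:**
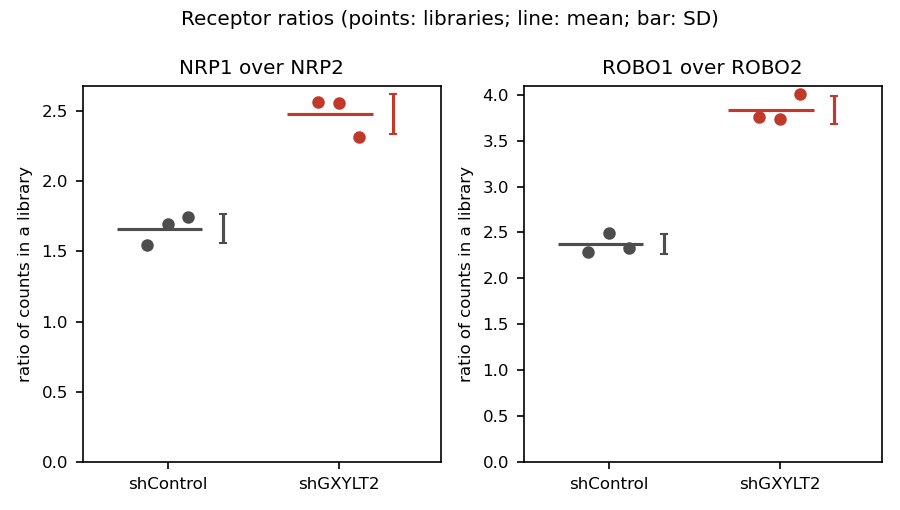
Ratio of NRP1 to NRP2 counts (left) and of ROBO1 to ROBO2 counts (right) in each library, on axes that start at 0. Points are libraries, lines are means and bars are SDs. The shGXYLT2 ratios, 2.31 to 2.57 on the left and 3.73 to 4.01 on the right, all lie above the shControl ratios. This follows from the levels of the genes in each pair, which lay apart in opposite directions.

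The netrin receptors of the UNC5 family mediate repulsion and are also known as dependence receptors. Of the 4 tested netrin receptors, NEO1 among them, 1 was higher and 1 lower, where 5.31% and 6.84% of all tested genes were. These counts are too small to set apart from those shares. UNC5C (chr4:95162504-95549206, minus strand) had 33.1, 33.6 and 34.5 CPM in shControl and 47.7, 47.5 and 42.9 CPM in shGXYLT2. It rose 1.37-fold from a tight shControl group, from 33.7 ± 0.722 to 46.0 ± 2.73 CPM (log2 fold change 0.45, SE 0.0726, edgeR adjusted p = 3.6e-04). UNC5D, on chromosome 8, had 8, 12 and 16 counts in shControl and 4, 3 and 2 counts in shGXYLT2, or 0.460, 0.703 and 0.704 CPM against 0.160, 0.122 and 0.0898 CPM. The fitted difference was 4.83-fold (log2 fold change -2.27, SE 0.504, edgeR adjusted p = 0.0055), and the summed counts, 36 against 9, gave a ratio of 5.02 with a 95% interval from 2.37 to 11.9 that covers counting error only. Because UNC5D entered the test through the shControl libraries alone, it could be called only as lower. The pseudogene LSM12P1, which overlaps the span of UNC5D on the opposite strand, had 4.26 and 3.99 CPM. Other genes that overlap called members had less than 1 CPM in both groups. UNC5B, the most abundant of the netrin receptors, did not pass at 111 ± 4.35 and 116 ± 8.45 CPM (log2 fold change 0.07, SE 0.0654, edgeR adjusted p = 0.56). Neogenin, encoded by NEO1 and also a receptor of repulsive guidance molecules, was at 63.6 ± 0.438 and 64.9 ± 2.46 CPM. Of the 4 netrin and netrin-G genes tested, 0 passed, where 12.2% of all tested genes were called in either direction. NTN1, the founding netrin, had 8.33, 8.96 and 7.96 CPM in shControl and 6.51, 5.42 and 7.41 CPM in shGXYLT2, all lower but short of the threshold (log2 fold change -0.38, SE 0.135, edgeR adjusted p = 0.070). It passed without shGXYLT2 replicate 3 (adjusted p = 0.022). NTNG1, a GPI-anchored relative, was at 20.2 ± 0.930 and 23.2 ± 0.867 CPM (log2 fold change 0.20, edgeR adjusted p = 0.14).

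Ligands were also set beside their known receptors, with levels as mean CPM in shControl and shGXYLT2. SEMA3A rose beside its co-receptor NRP1, whose call held under 8 of 12 alternatives. The other neuropilin, NRP2, was called lower, a call that held under 2 of 12. Of the plexin-A genes, PLXNA2 fell from 8.58 to 5.76 CPM. PLXNA1 stood at 65.5 and 56.0 CPM, PLXNA3 at 20.2 and 17.2 CPM and PLXNA4 at 13.7 and 15.1 CPM, none past the threshold. SEMA6A and SEMA6D rose where PLXNA2, a SEMA6A receptor, fell. EFNB2, whose call held under 5 of 12 alternatives, rose beside EPHA4, with EPHB4 not past the threshold. EPHA2 fell while its ligand EFNA1 was at 13.9 and 14.0 CPM. ROBO2 fell with SLIT2 not past the threshold, and UNC5C rose with NTN1 at 8.42 and 6.45 CPM. SEMA4B rose with PLXNB1 at 12.1 and 13.8 CPM and PLXNB2 at 129 and 143 CPM, neither past the threshold. SEMA7A, at 1.13 and 0.667 CPM, and its receptor gene PLXNC1, at 2.78 and 2.35 CPM, did not pass.

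Other genes of these pathways were called in both directions. Of 99 listed cofactors, adaptors and effectors, 83 were tested, 6 were higher (7.23%) and 11 lower (13.3%), against 5.31% and 6.84% of all tested genes. In the Eph and ephrin list, 2 of 22 tested genes were higher, CHN1 (66.0 to 78.7 CPM) and SIPA1L1 (107 to 123 CPM), and 3 were lower. The lower ones were the kinase gene ABL2 (60.3 to 37.6 CPM, edgeR adjusted p = 1.3e-05, log2 fold change -0.68), the syntenin gene SDCBP, whose product binds ephrin-B tails (100 to 75.5 CPM), and the guanine nucleotide exchange factor gene VAV3 (37.8 to 27.4 CPM). In the semaphorin list, 2 of 26 tested genes were higher, CDK5R1 and RAP1A, and 3 were lower, with L1CAM, an adhesion molecule that complexes with NRP1, falling from 53.0 ± 1.46 to 36.5 ± 1.68 CPM (edgeR adjusted p = 3.0e-05, log2 fold change -0.54). CRMP1, a mediator of SEMA3A signalling, fell from 9.46 to 6.26 CPM, and FARP2 from 59.9 to 51.4 CPM.

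In the Slit and Robo list, NELL2, a secreted ligand of ROBO3, had 323, 327 and 322 CPM in shControl and 496, 491 and 486 CPM in shGXYLT2. It had the lowest adjusted p of the 4 lists, with a 1.52-fold rise (log2 fold change 0.60, SE 0.0525, edgeR adjusted p = 2.0e-07), while ROBO3 itself did not pass. CAP2 was also higher (19.8 to 23.9 CPM), and SRGAP2, a Robo-binding GTPase-activating protein gene, was lower (85.6 to 74.6 CPM). In the netrin list, 0 of 20 tested genes were higher and 4 were lower, where 5.31% and 6.84% of all tested genes were. Fold changes were above 0 in 8 of the 20 and below 0 in 12. The 4 lower genes were APPL1, which binds DCC (85.5 to 64.4 CPM), FLRT2, a ligand of UNC5 receptors (75.5 to 60.9 CPM), PPP2R1B (83.6 to 69.8 CPM) and DAPK1, a kinase that binds UNC5 death domains (21.1 to 17.2 CPM). Of these 17 calls, those of ABL2, SDCBP, VAV3, L1CAM, NELL2, APPL1 and FLRT2 held in each of the 12 alternatives run, and the other 10 were each lost in at least 1.

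SEMA3A, SEMA3D and SEMA3E lie within 4.44 megabases of chromosome 7, together with SEMA3C. The stretch from the lower end of SEMA3C to the upper end of SEMA3D (chr7:80742538-85186855) was singled out after the values were seen. It holds 31 annotated genes in the count table, of which 7 were tested, 5 were higher, 0 were lower and 2 did not pass, where 5.31% of all tested genes were higher and 6.84% lower. The 5 include the 3 semaphorins that prompted the choice, so the count supports nothing by itself. Besides the 3 semaphorins, the higher ones were CACNA2D1, a calcium channel subunit gene (79.5, 84.4 and 89.3 CPM in shControl, and 107, 106 and 88.9 CPM in shGXYLT2; log2 fold change 0.25, SE 0.0742, edgeR adjusted p = 0.030), and HGF, which encodes the ligand of MET. The groups of CACNA2D1 overlapped. HGF had 6, 3 and 3 counts in shControl and 16, 18 and 16 counts in shGXYLT2 (log2 fold change 1.70, SE 0.461, edgeR adjusted p = 0.020), and entered the test through the shGXYLT2 libraries alone. Both calls were lost in some alternatives (adjusted p up to 0.17 for CACNA2D1 and 0.14 for HGF). SEMA3C (log2 fold change 0.08) and PCLO, a presynaptic scaffold gene (143 to 157 CPM, edgeR adjusted p = 0.22, log2 fold change 0.13), did not pass. In SEMA3A, SEMA3C, SEMA3D, SEMA3E, CACNA2D1 and PCLO, shGXYLT2 replicate 3 was the lowest of the 3 shGXYLT2 libraries. Without it, the log2 fold changes were 0.51 for SEMA3A, 0.58 for SEMA3E and 0.40 for SEMA3D. The median over the 7 tested genes was 0.31 on the log2 scale. Whether the 2 lines differ in copy number here was not tested.

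**Figure D5:**
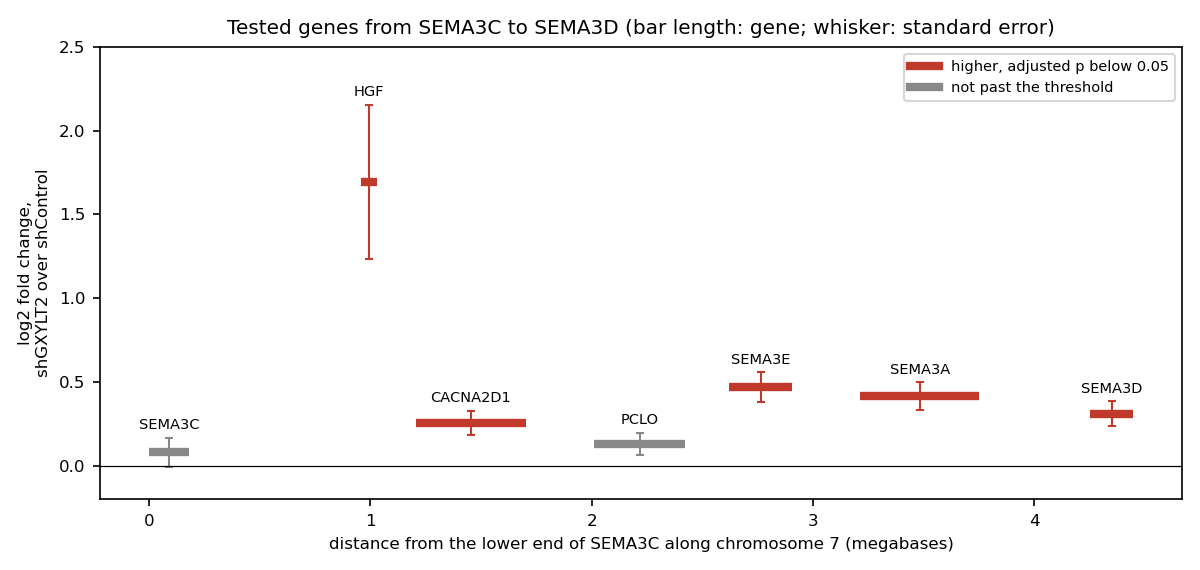
Log2 fold change, shGXYLT2 over shControl, of the 7 tested genes between SEMA3C and SEMA3D against distance along chromosome 7 in megabases. The length of each bar is the extent of the gene and whiskers are standard errors. Red genes were called higher, grey genes did not pass, and all 7 values lie above 0.

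By their medians, called members had longer genes and a lower GC content than members not called. The longest transcript of the 11 higher members had a median GC content of 44.3%, that of the 5 lower members 50.4% and that of the 46 not called 58.9%, where the medians over all tested genes were 45.5% for higher, 45.9% for lower and 48.2% for genes not called. Median gene spans were 180 kilobases for higher members, 222 for lower members and 33.3 for members not called, beside 29.6 kilobases over all tested genes. Across the 62 tested members, which share their libraries, the fold change and the GC content had a Pearson r of -0.23 and a Spearman coefficient of -0.41. Across 15108 genes of the whole table these were -0.043 and -0.029. In a fit with offsets for GC content and length, which calls 9.42% of all tested genes higher and 10.2% lower, all 16 called members kept their call. In that fit 9 more were higher: EPHA6, EPHB2, EPHB4, EPHB6, NTNG1, PLXNB2, PLXND1, ROBO1 and UNC5B. Whether GC content bears on the calls in other ways was not tested.

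An earlier look at these data had picked out the 7-base word GACTCAT because 3′ untranslated regions that hold it were frequent among genes lower in shGXYLT2, so its occurrence here is a description that supports nothing by itself. The sense strand of the longest annotated 3′ untranslated region of each gene (GENCODE 29, GRCh38, at least 100 bases) was searched. Among tested genes at large the word was in 25.4% of lower genes, 5.15% of higher genes and 7.03% of genes not called. Among guidance genes it was in 1 of 5 lower genes, 3 of 11 higher genes and 4 of 45 genes not called. These shares were not adjusted for length, and longer regions offer more places for a word. Over regions of any length, the median was 3406 bases in higher and 3909 in lower members. In all higher and all lower tested genes it was 1409 and 2279.5 bases. The 4 called genes that hold the word are shown because 3 of them rose, which differs from the direction in which the word was picked. Each sequence is the transcript strand, 5′ to 3′, with the word in capitals and 11 bases on either side.
SEMA3A: actgtttgagaGACTCATgtgaccttacg
SEMA3E: ttttaaaaaagGACTCATttttcaggcca
NRP1: gttcaccatcgGACTCATgtgcagtcagc
ROBO2: catcaggtccgGACTCATggaagtgatga
The words themselves lie at chr7:83958869-83958875 for SEMA3A, chr7:83363693-83363699 for SEMA3E and chr10:33179886-33179892 for NRP1, all on the minus strand, and at chr3:77646104-77646110 on the plus strand for ROBO2. Of these genes, ROBO2 fell 1.41-fold and carries the word at base 49 of a region of 3909 bases. NRP1, which rose, carries it at base 184 of 2584. In SEMA3A and SEMA3E, which rose, it starts at base 2496 of 5594 and base 3887 of 4348. The members not called that hold the word were NTN1, SEMA5A, EPHB2 and EFNA5, with log2 fold changes of -0.38, 0.13, 0.23 and -0.05.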

How the data were processed

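RNA-seq of 6 HGC-27 libraries was analysed, 3 shControl and 3 shGXYLT2, made with a stranded mRNA kit from total RNA, per the labels' protocols. The authors deposited estimated counts per gene, of which 12.3% are not whole numbers. Per the submitters' processing notes, fastp, HISAT2, StringTie and the build GRCh38.p13 were used. Their roles, the annotation and the strand setting of the counting were not given in the sources used here, so reads of overlapping antisense genes may not be separated. Counts were rounded and tested with edgeR 4.0.16 in R 4.3.3 (filterByExpr by group, TMM scaling, robust quasi-likelihood fit, Benjamini-Hochberg adjustment over all 15693 tested genes, threshold 0.05), which was checked on simulated data. The simulation gave every gene and both groups the same dispersion. In the data, chi-square per degree of freedom between libraries was 1.95 to 3.97 within shControl and 5.86 to 11.0 within shGXYLT2. The check does not cover that difference. CPM are TMM-scaled. Levels between genes use the deposited gene length. Positions, GC content and 3′ untranslated regions came from GENCODE 29, to which 58279 genes (92.9%) matched.

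Members were taken by symbol. Named are the members called, those most abundant per kilobase in each family and those not tested. Of each partner list, the called genes with the lowest adjusted p are named. Other names were added after their values were seen. The members and lists were chosen with earlier results of these data known. Alternatives were DESeq2 1.42.0, other scaling, no count filter, a replicate block, GC and length offsets, and each library left out in turn.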

Additional observations from a re-analysis of the deposited data

How the results depend on the processing

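Over the 12 alternatives, 10 of the 16 guidance gene calls held wherever an adjusted p was given: EPHA4, EPHA7, SEMA3A, SEMA3E, SEMA6A, SEMA6D and UNC5C higher, and PLXNA2, ROBO2 and UNC5D lower. DESeq2 gave no adjusted p for UNC5D. In the main fit UNC5D passed the count filter through the shControl libraries alone and could be called only as lower. Its hold in fits with that filter therefore supports nothing by itself. Leaving out each library in turn gave 8 to 12 higher and 3 to 7 lower members, 397 to 1038 higher and 563 to 1309 lower genes over the whole table, and 1 to 9 higher and 6 to 12 lower partner genes; fewer samples then enter the fit. With DESeq2, 3 members were lower, since NRP2 did not pass and UNC5D had no adjusted p. Among higher members, EFNB2 was lost and ROBO1 gained in that fit. With GC and length offsets, 20 members, 14 partner genes and 1479 genes overall were higher; the cause was not tested. By the replicate numbers in the titles, the correlations of same-numbered deviations from group means were -0.02, -0.21 and -0.26, none of them positive. Among libraries of different numbers they reached 0.25 (shControl replicate 2 with shGXYLT2 replicate 3) and 0.22 (shControl replicate 3 with shGXYLT2 replicate 2). Whether the libraries pair in another way was not tested. The column names number the libraries otherwise (1, 2 and 4 for shControl, 1, 3 and 4 for shGXYLT2). By them, only the first and the last of the same-numbered pairs share a number. With the replicate number as a block, 10 members were higher and 4 lower, and 3 partner genes were higher. The sign turned only in members that were not called. With GC and length offsets EFNA1 went to -0.0012, EFNB1 to 0.011 and EPHA5 to 0.035. With a library left out, log2 fold changes ran from -0.017 to 0.051 for EFNA1, -0.088 to 0.052 for EFNB1, -0.027 to 0.13 for EPHA3, -0.094 to 0.047 for EPHA5, -0.094 to 0.28 for EPHB1, -0.0035 to 0.054 for NEO1, -0.14 to 0.037 for ROBO3, -0.026 to 0.17 for SEMA4C, -0.12 to 0.023 for SEMA4D and -0.35 to 0.22 for SEMA6C. Depth limits low-count genes such as UNC5D, EPHB1, HGF and the 10 untested members.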
